A study of Homo sapiens with 12 samples.

Results

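Homologous recombination and Fanconi repair genes encode the machinery that copies an intact sister chromatid to mend broken DNA and that unhooks crosslinked DNA strands. The set described here holds 33 named genes of these pathways, of 60649 gene rows in each deposited table, and all 33 were found and passed the low-count filter in both experiments. The series sequenced RNA of xenografts grown from Cal33 cells, an established line of human squamous carcinoma of the head and neck. It holds 2 experiments and 4 groups of 3 libraries each. In the first, smTEADi tumours were treated with SW-682, a small molecule directed at TEAD, and Vehicle tumours received vehicle. In the second, pTEADi (DOX+) tumours were exposed to doxycycline, which switches on a TEAD inhibitor made in the cells, and Control (DOX-) tumours were not. TEAD proteins are the DNA-binding partners of the co-activators YAP and TAZ, and the series asks what blocking that partnership does in this cancer. The labels give no dose, duration, host strain or animal age, and do not say whether Control tumours carry the inducible construct. Doxycycline and the inhibitor it induces therefore cannot be told apart. Nothing in the labels ties libraries to separate mice, and the p-values therefore reflect the scatter among these libraries only, which may be technical.

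Homologous recombination starts when a DNA end is trimmed to a single strand, which is then coated with protein, with the help of BRCA2, so that it can invade the sister chromatid. Because a sister exists only after replication, most of these genes are switched on in S and G2 phase, many of them by E2F factors. The DREAM complex represses cell cycle genes in resting cells. The Fanconi pathway senses a replication fork stalled at a crosslink, attaches ubiquitin to the FANCD2 and FANCI pair, and hands the lesion to nucleases and to recombination. Squamous carcinomas of the head and neck are frequent in people born with Fanconi anaemia.

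The letters that E2F factors read were searched in the promoters of the set, since many of its genes are textbook E2F targets. RefSeq windows of 250 bases before to 50 after a start (GRCh38.p14) were at hand for 30 of the 33 genes, all but NBN, RAD54B and FANCI. One of the 8-letter E2F strings TTTCGCGC, TTTGGCGC, TTTCCCGC and TTTGCCGC, on either strand, stood in the windows of 5 of the 30 genes (16.7%), against 6.42% of 11054 tested genes with a window and 3.31% of all 35116 windows. The 5 genes, EXO1, FANCD2, XRCC2, FANCC and FANCA, all fell with pTEADi, as described below, and XRCC2 and FANCC did not pass with SW-682. FANCC held a pair of sites. Each site is printed 5′ to 3′ on the strand of its gene with 11 bases on either side, and the E2F letters are in capitals.
EXO1, chr1:241848197-241848226, plus strand: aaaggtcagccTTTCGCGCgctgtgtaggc
FANCD2, chr3:10026424-10026453, plus strand: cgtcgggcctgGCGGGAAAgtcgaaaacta
XRCC2, chr7:152676102-152676131, minus strand: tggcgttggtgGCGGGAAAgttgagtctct
FANCC, chr9:95317863-95317892, minus strand: ccggggcttccGCGCGAAAccgggaacact
FANCC, chr9:95317737-95317766, minus strand: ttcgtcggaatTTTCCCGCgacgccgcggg
FANCA, chr16:89816801-89816830, minus strand: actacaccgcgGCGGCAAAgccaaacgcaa
The other strings searched, also on either strand, stood at shares near those of other promoters. TTTGAA or TTCGAA, the core of the CHR element bound by DREAM, stood in 5 of 30 genes (16.7%, against 15.39% of tested genes). CCAAT stood in 14 of 30 (46.7%, against 42.81%), and the TEAD letters GGAATG in 5 of 30 (16.7%, against 15.11%). Of the 21 genes with a window that fell with pTEADi and the 9 that did not, E2F strings stood in 5 and 0, CHR cores in 4 and 1, CCAAT in 11 and 3 and the TEAD letters in 4 and 1. A match describes the letters in a window and is not a bound site, and some strings overlap others.

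The 250 bases before the start are printed below for 3 genes that differ in how they moved, all on the minus strand of GRCh38.p14 and written 5′ to 3′ along the gene, with every searched string in capitals. FANCA fell in both experiments, BRIP1 fell with pTEADi, and ATR passed the test in neither.
FANCA, chr16:89816648-89816897, minus strand: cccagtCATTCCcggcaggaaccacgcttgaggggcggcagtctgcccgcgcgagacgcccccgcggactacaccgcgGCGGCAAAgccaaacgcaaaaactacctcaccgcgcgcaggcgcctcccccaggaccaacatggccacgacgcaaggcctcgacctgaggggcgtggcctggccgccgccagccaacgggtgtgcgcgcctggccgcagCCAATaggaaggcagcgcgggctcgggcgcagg
BRIP1, chr17:61863529-61863778, minus strand: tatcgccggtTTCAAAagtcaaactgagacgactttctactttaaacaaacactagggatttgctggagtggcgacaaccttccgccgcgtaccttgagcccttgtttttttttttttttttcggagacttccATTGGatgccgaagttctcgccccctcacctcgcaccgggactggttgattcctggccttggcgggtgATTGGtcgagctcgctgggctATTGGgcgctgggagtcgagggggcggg
ATR, chr3:142578734-142578983, minus strand: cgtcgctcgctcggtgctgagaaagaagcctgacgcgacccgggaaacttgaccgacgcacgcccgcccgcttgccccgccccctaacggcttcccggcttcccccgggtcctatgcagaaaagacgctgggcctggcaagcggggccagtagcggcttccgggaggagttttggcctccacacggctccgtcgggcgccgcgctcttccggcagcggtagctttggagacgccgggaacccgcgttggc
FANCA held the E2F string at position -172, with the TEAD letters read from the other strand at -244 and a CCAAT at -33, counted from the first transcribed base as 1. BRIP1 held CCAAT on the other strand at 3 places and a CHR core at -240. None of the strings stood in the ATR stretch, which says only that these letters are not in this window.

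Library totals were 13576494 to 15433679 expected counts, of which 5022 to 10390 fell on the 33 genes. Markers of squamous carcinoma cells, keratins, TP63 and others, summed to 43170 to 60230 CPM (TMM-scaled counts relative to library size) in smTEADi, 55700 to 75680 in Vehicle, 65350 to 77990 in pTEADi and 66180 to 78810 in Control libraries. Of those 9 markers EPCAM fell in both experiments, with -1.10 ± 0.20 (adjusted p = 0.0365) for SW-682 and -1.15 ± 0.15 (adjusted p = 0.000248) for pTEADi. With pTEADi KRT17 also fell, with -1.31 ± 0.17 (adjusted p = 0.000248), and DSG3 rose, with 0.32 ± 0.10 (adjusted p = 0.0388). Markers of other cells were mixed: AIF1 and TYROBP of leukocytes, COL3A1 and POSTN of fibroblasts, KDR and EMCN of endothelium and ADIPOQ of adipocytes were listed at 0 in all 12 libraries. COL1A1 was at 69.7 to 132.3 CPM, CD74 at 11.3 to 27.9, CD68 at 5.07 to 37.3, VWF at 12.6 to 64.5 and FABP4 at 10.1 to 63.4 CPM. Under 1 CPM in all 12 were 5 of 11 leukocyte, 6 of 10 fibroblast, 6 of 8 endothelial and 3 of 6 adipocyte markers. Summed endothelial CPM, most of it from VWF, was 32.9 to 44.5 in pTEADi and 15.3 to 24.8 in Control libraries, and no smTEADi library was as low as any Vehicle library (lowest smTEADi 40.6, highest Vehicle 37.9). The part of these markers in the results was not tested. The library smTEADi 1 was the lowest of its group for 29 of the 33 genes (38.29% of all tested genes), and Vehicle 2 for 28 of 33 (36.61% of all).

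Levels per transcript length spanned a wide range within the set. TPM, counts divided by the length of each gene's canonical transcript and scaled to 1 total in every library, was highest for UBE2T, the ubiquitin-conjugating enzyme of the Fanconi pathway, with a mean of 23.6 TPM over the 12 libraries. XRCC3, a strand exchange cofactor, averaged 22.6 TPM, RBBP8 22.5 and FANCE, a linker subunit of the Fanconi core, 19.6. Lowest were RAD51D with 1.102 TPM, BRCA2 with 1.15 and FANCB with 1.27. The order of means differed between groups: UBE2T averaged 10.7 ± 3.69 TPM in smTEADi and 27.3 ± 6.61 TPM in Vehicle libraries, so that in smTEADi libraries it was below NBN, a subunit of the break sensor, with 20.3 ± 1.89 TPM (SD, n = 3 each). Means of neighbours in this order often lay within their SDs, as for FANCE with 20.7 ± 2.92 TPM and FANCG with 19.1 ± 1.69 TPM in Control libraries. The level of XRCC3 is uncertain, since 76.7% of its exon bases lie opposite exons of KLC1 and the strand setting of the counts is not given. For RAD50 76.9% of exon bases are shared with a readthrough transcript, and for RAD54B 66.0% with FSBP. The share was 19.9% for RAD54L, opposite LRRC41, and 19.6% for FANCA, opposite ZNF276.

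**Figure D1:**
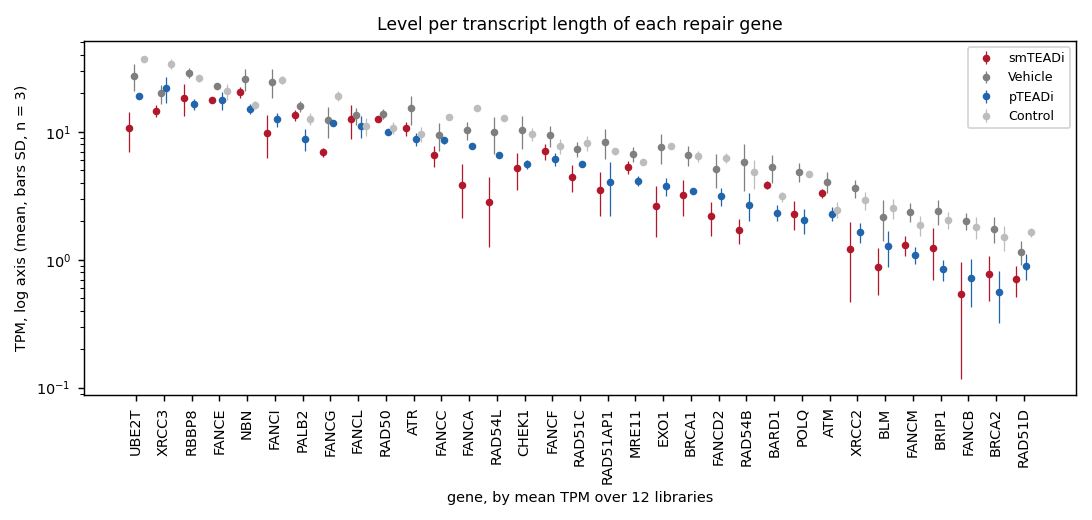
Mean TPM of each gene in smTEADi, Vehicle, pTEADi and Control libraries (points, with SD of 3 libraries as bars), on a log axis and ordered by the mean over 12 libraries. Levels run from 23.6 TPM for UBE2T to 1.102 TPM for RAD51D.

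Many genes of the set were lower in smTEADi and in pTEADi libraries, and none rose past the test. With SW-682, 9 of 33 fell and 0 rose at an adjusted p under 0.05, by edgeR's quasi-likelihood test with Benjamini-Hochberg adjustment over all genes, where 3.48% of 14829 tested genes fell, 2.02% rose and 5.5% did either. The 9 were EXO1, BRCA1, RAD54L, RAD54B, FANCA, FANCD2, FANCI, UBE2T and POLQ. With pTEADi, 23 of 33 fell and 0 rose, where 13.6% of 14705 tested genes fell, 12.7% rose and 26.3% did either. These 23 held all 9 of the SW-682 genes. Fewer proliferating cells and less of these RNAs per cell cannot be told apart in bulk tumour RNA. The log2 fold change over Vehicle was below 0 for 33 of 33 genes, with a median of -0.76 (58.9% of the Vehicle level), and 48.9% of all tested genes were below 0. Over Control it was below 0 for 31 of 33, with a median of -0.69 (62.0% of the Control level), and 50.1% of all tested genes were below 0. The median over all tested genes was 0.011 and -0.001 in the same order. Every smTEADi library lay below every Vehicle library for 24 of 33 genes, as it did for 17.3% of all tested genes, and above it for 0 of 33 (15.7% of all). Every pTEADi library lay below every Control library for 26 of 33, as it did for 21.9% of all, and above it for 0 of 33 (20.1% of all). The 9 SW-682 calls depended on single libraries: the count was 5 without smTEADi 1, 3 without smTEADi 2, 0 without smTEADi 3, Vehicle 1 or Vehicle 3, and 17 without Vehicle 2. Without smTEADi 1 the calls of BRCA1, RAD54B, FANCD2 and UBE2T were lost (adjusted p = 0.0501 to 0.0688). Without Vehicle 2, ATR, CHEK1, BRCA2, XRCC2, RAD51AP1, FANCG, FANCM and BLM passed (adjusted p = 0.0167 to 0.0484). Without smTEADi 3 the adjusted p-values of the 9 genes were 0.0518 to 0.066, without Vehicle 1 they were 0.134 to 0.157, and without Vehicle 3 they were 0.184 to 0.204. The median was -0.64 without smTEADi 1 and -0.91 without Vehicle 2. Without smTEADi 3, Vehicle 1 and Vehicle 3 it was -0.86, -0.77 and -0.66. Leaving out any of these 3 libraries also left 0 calls among 22 proliferation markers and 18 tested YAP/TAZ targets. The loss of SW-682 calls was thus not particular to the set. With pTEADi the count was 16 to 24 whichever library was left out. DESeq2 called 18 genes with SW-682 and 21 with pTEADi, and limma-voom 11 and 24.

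**Figure D2:**
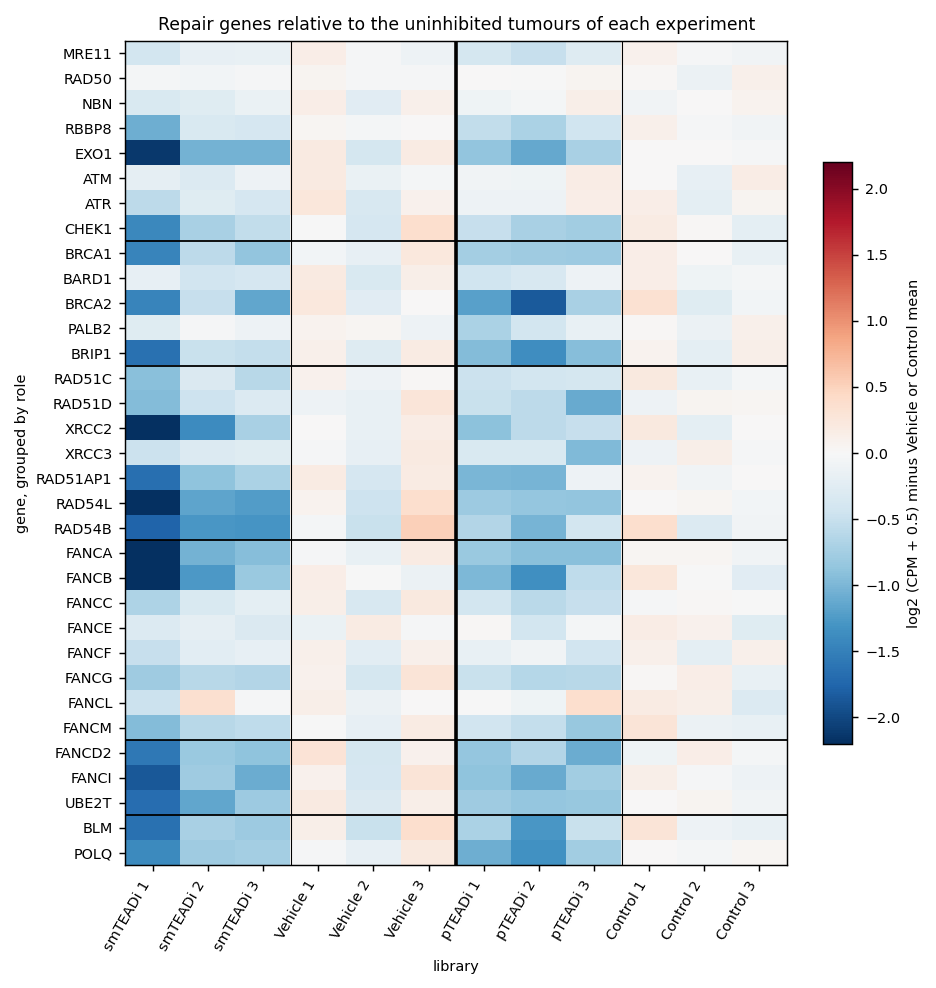
log2 (CPM + 0.5) of the 33 genes (rows, grouped by role) in each library (columns), minus the mean of the Vehicle libraries in the SW-682 experiment and of the Control libraries in the pTEADi experiment. Blue is lower, and smTEADi 1 is the lowest of the smTEADi and Vehicle libraries for 29 of 33 genes.

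Genes for end resection and damage sensing, which trim and mark broken ends, split into those that fell and those that did not. With SW-682 1 of 8 fell (3.48% of all tested genes), and with pTEADi 4 of 8 (13.6% of all). EXO1 (ENSG00000174371.17, chr1:241847967-241895148, plus strand), a nuclease that resects DNA ends over long distances, was at 2.298, 5.48 and 5.43 CPM in the smTEADi libraries, against 13.5, 8.91 and 13.4 CPM in the Vehicle libraries. It was at 6.83, 5.61 and 7.67 CPM in the pTEADi libraries, against 12.9, 12.9 and 12.7 CPM in the Control libraries. The groups did not overlap in either experiment, and EXO1 fell by 1.43 ± 0.31 (adjusted p = 0.0401) on the log2 scale with SW-682 and by 0.94 ± 0.16 (adjusted p = 0.00124) with pTEADi, as log2 fold change ± SE. RBBP8, whose protein CtIP starts resection, was at 20.4, 34.3 and 33.3 CPM in the smTEADi libraries, against 44.6, 41.95 and 43.5 CPM in the Vehicle libraries. RBBP8 stood at 27.98, 25.1 and 30.3 CPM in the pTEADi libraries, against 44.6, 40.2 and 38.9 CPM in the Control libraries. Both inhibited groups were lower without overlap, smTEADi 1 most of all, and the log2 fold change was -0.56 ± 0.18 (adjusted p = 0.0841) with SW-682 and -0.57 ± 0.11 (adjusted p = 0.00234) with pTEADi, which passed. CHEK1, the kinase that ATR activates to hold the cell cycle, was at 6.82, 11.4 and 12.9 CPM in the smTEADi libraries, against 18.96, 14.5 and 24.8 CPM in the Vehicle libraries. CHEK1 stood at 13.2, 11.4 and 10.99 CPM in the pTEADi libraries, against 21.6, 19.4 and 16.4 CPM in the Control libraries. Its groups did not overlap, and it fell by 0.69 ± 0.14 (adjusted p = 0.00426) with pTEADi, while the value of -0.90 ± 0.26 (adjusted p = 0.0662) with SW-682 did not pass.

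MRE11, the nuclease of the MRE11, RAD50 and NBN break sensor, was at 15.7, 18.4 and 18.8 CPM in the smTEADi libraries, against 23.2, 20.7 and 19.3 CPM in the Vehicle libraries. MRE11 stood at 14.6, 13.4 and 15.7 CPM in the pTEADi libraries, against 20.7, 18.9 and 18.2 CPM in the Control libraries. Inhibited libraries were lower without overlap in both experiments, but by little. MRE11 had -0.26 ± 0.13 (adjusted p = 0.243) with SW-682 and fell with pTEADi by 0.40 ± 0.12 (adjusted p = 0.0299), a call lost without pTEADi 1, pTEADi 2 or Control 1 (adjusted p = 0.0819 to 0.138). Its partners RAD50, the ATPase that tethers ends, and NBN, the subunit that brings in ATM, did not pass: RAD50 had log2 fold changes of -0.04 ± 0.09 (adjusted p = 0.777) and 0.01 ± 0.09 (adjusted p = 0.945), and NBN of -0.26 ± 0.13 (adjusted p = 0.21) and 0.00 ± 0.10 (adjusted p = 0.989), with SW-682 and pTEADi in that order. The kinase ATM, which answers to breaks, was at 20.8, 19.4 and 22.2 CPM in the smTEADi libraries, against 27.6, 21.5 and 23.1 CPM in the Vehicle libraries. ATM stood at 14.5, 14.2 and 17.1 CPM in the pTEADi libraries, against 15.4, 13.4 and 17.1 CPM in the Control libraries. The ATM groups overlapped in both experiments. ATR, the kinase that answers to exposed single strands, was at 37.2, 46.2 and 43.1 CPM in the smTEADi libraries, against 66.3, 43.7 and 59.6 CPM in the Vehicle libraries. ATR stood at 34.5, 34.7 and 41.5 CPM in the pTEADi libraries, against 41.5, 32.3 and 38.8 CPM in the Control libraries. The ATR groups overlapped too, and neither kinase passed the test, with -0.21 ± 0.13 (adjusted p = 0.335) and 0.00 ± 0.14 (adjusted p = 0.991) for ATM and -0.42 ± 0.16 (adjusted p = 0.121) and -0.02 ± 0.12 (adjusted p = 0.901) for ATR. Without Vehicle 2 the SW-682 value of ATR passed, with an adjusted p of 0.0277.

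In the BRCA1 and BRCA2 complexes, which favour recombination over end joining, 1 of 5 genes fell with SW-682 and 4 of 5 with pTEADi. The shares over all tested genes were 3.48% and 13.6%. BRCA1 (ENSG00000012048.23, chr17:43044295-43170245, minus strand), a ubiquitin ligase that promotes resection, was at 7.49, 14.1 and 11.4 CPM in the smTEADi libraries, against 20.4, 18.8 and 25.1 CPM in the Vehicle libraries. BRCA1 stood at 12.9, 12.5 and 12.4 CPM in the pTEADi libraries, against 24.5, 22.2 and 19.5 CPM in the Control libraries. No inhibited library reached an uninhibited one of its experiment, and BRCA1 fell by 0.96 ± 0.22 (adjusted p = 0.0436) on the log2 scale with SW-682 and by 0.81 ± 0.13 (adjusted p = 0.000785) with pTEADi. BRCA2, which prepares single-stranded DNA for strand invasion, was at 3.11, 6.47 and 3.998 CPM in the smTEADi libraries, against 11.2, 7.85 and 9.52 CPM in the Vehicle libraries. BRCA2 stood at 3.45, 2.01 and 4.98 CPM in the pTEADi libraries, against 10.9, 7.0 and 8.12 CPM in the Control libraries. Its groups did not overlap, and it had the most negative pTEADi value of the set: it fell by 1.31 ± 0.29 (adjusted p = 0.00603), and with SW-682 the value of -1.07 ± 0.27 (adjusted p = 0.0521) just missed the threshold. BRIP1, a helicase that binds BRCA1 and is also known as FANCJ, was at 2.52, 6.21 and 6.07 CPM in the smTEADi libraries, against 9.66, 7.22 and 10.1 CPM in the Vehicle libraries. BRIP1 stood at 3.901, 2.802 and 3.94 CPM in the pTEADi libraries, against 8.52, 6.86 and 8.89 CPM in the Control libraries. It fell by 1.19 ± 0.21 (adjusted p = 0.00157) with pTEADi, and with SW-682, where smTEADi 1 was far below smTEADi 2 and 3, the value was -0.86 ± 0.31 (adjusted p = 0.114). PALB2, the bridge between BRCA1 and BRCA2, was at 24.1, 28.4 and 26.7 CPM in the smTEADi libraries, against 30.8, 29.8 and 26.8 CPM in the Vehicle libraries. PALB2 stood at 14.8, 18.1 and 21.4 CPM in the pTEADi libraries, against 24.5, 21.9 and 26.2 CPM in the Control libraries. The SW-682 groups overlapped, with -0.14 ± 0.12 (adjusted p = 0.458), and the fall by 0.42 ± 0.14 (adjusted p = 0.0494) with pTEADi sat at the threshold: it was lost without pTEADi 1, pTEADi 2, Control 1 or Control 3 (adjusted p = 0.103 to 0.187). BARD1, the partner BRCA1 needs as a ligase, did not pass, with -0.36 ± 0.18 (adjusted p = 0.223) and -0.32 ± 0.17 (adjusted p = 0.2).

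**Figure D3:**
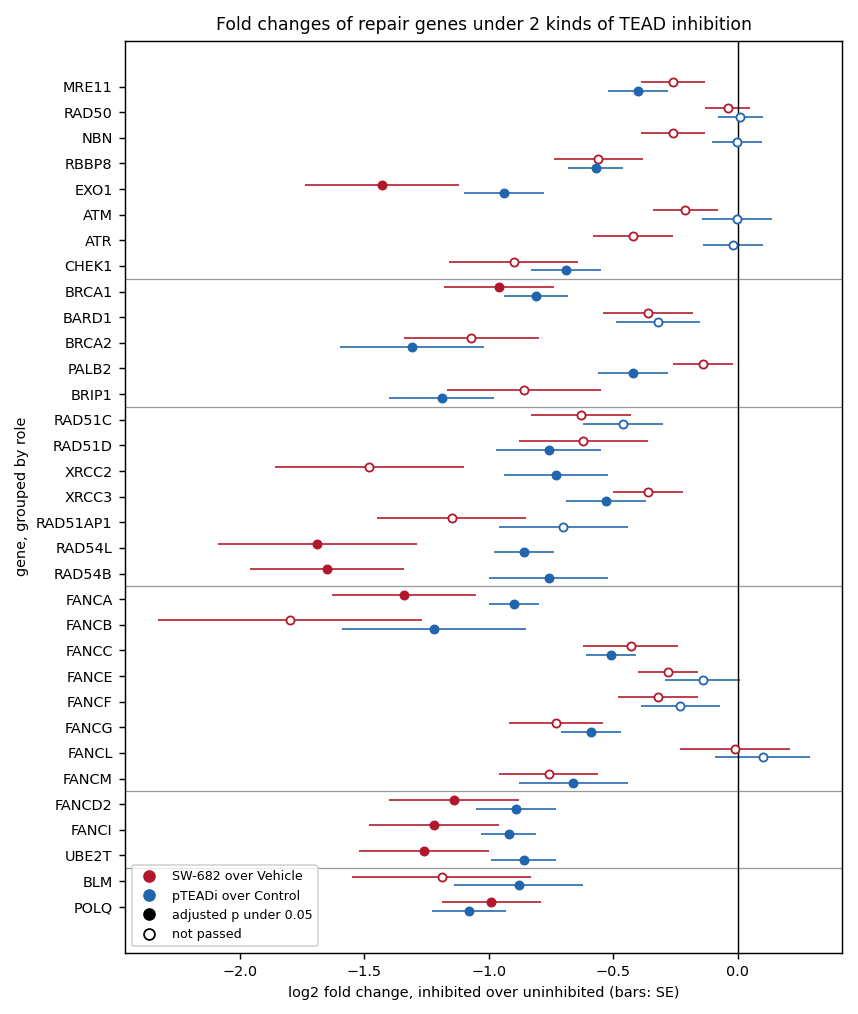
log2 fold change of each gene, with SE as bars, for SW-682 over Vehicle (red) and pTEADi over Control (blue), grouped by role. Filled points passed an adjusted p of 0.05: 9 with SW-682 and 23 with pTEADi, all of them below 0.

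Strand exchange cofactors, which help a DNA strand invade its partner, were below their controls without overlap for 7 of 7 genes in both experiments. So were 17.3% of all tested genes with SW-682 and 21.9% with pTEADi. Of the 7, 2 fell past the test with SW-682 (3.48% of all) and 5 with pTEADi (13.6% of all). RAD54L (ENSG00000085999.13, chr1:46246461-46278480, plus strand), a motor that drives strand invasion, was at 1.56, 5.75 and 5.43 CPM in the smTEADi libraries, against 14.2, 9.69 and 17.6 CPM in the Vehicle libraries. RAD54L stood at 10.7, 10.4 and 10.2 CPM in the pTEADi libraries, against 19.2, 19.6 and 18.1 CPM in the Control libraries. It fell by 1.69 ± 0.40 (adjusted p = 0.0446) on the log2 scale with SW-682, to 30.9% of the Vehicle level, and by 0.86 ± 0.12 (adjusted p = 0.00042) with pTEADi, to 54.97% of the Control level. The 3 pTEADi libraries lay close together, while the smTEADi libraries spread more widely. RAD54B, a related motor, was at 1.93, 2.91 and 2.86 CPM in the smTEADi libraries, against 7.52, 5.38 and 11.4 CPM in the Vehicle libraries. RAD54B stood at 4.28, 3.16 and 5.11 CPM in the pTEADi libraries, against 9.15, 5.57 and 6.58 CPM in the Control libraries. It fell by 1.65 ± 0.31 (adjusted p = 0.0365) with SW-682 and by 0.76 ± 0.24 (adjusted p = 0.0382) with pTEADi, the pTEADi call being lost without pTEADi 1, pTEADi 2 or Control 1 (adjusted p = 0.0922 to 0.184). XRCC2, a cofactor of strand exchange, was at 1.19, 2.71 and 4.57 CPM in the smTEADi libraries, against 7.86, 6.93 and 8.83 CPM in the Vehicle libraries. XRCC2 stood at 3.301, 4.31 and 4.49 CPM in the pTEADi libraries, against 7.76, 5.64 and 6.65 CPM in the Control libraries. Its SW-682 value of -1.48 ± 0.38 (adjusted p = 0.0521) just missed the threshold with a wide error, and it fell by 0.73 ± 0.21 (adjusted p = 0.0243) with pTEADi. RAD51D, which pairs with XRCC2, was at 2.45, 3.699 and 4.14 CPM in the smTEADi libraries, against 4.83, 4.598 and 6.42 CPM in the Vehicle libraries. RAD51D stood at 5.48, 5.102 and 3.39 CPM in the pTEADi libraries, against 7.28, 8.29 and 8.12 CPM in the Control libraries. It fell by 0.76 ± 0.21 (adjusted p = 0.0178) with pTEADi, and its SW-682 value was -0.62 ± 0.26 (adjusted p = 0.161). The pTEADi call of XRCC2 was lost without pTEADi 1, pTEADi 2 or Control 1 (adjusted p = 0.0652 to 0.11) and the calls of RAD51D and XRCC3 without pTEADi 3 (adjusted p = 0.0614 and 0.0597).

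Of the other 3 genes of that group 0 passed with SW-682 and 1 with pTEADi. XRCC3, whose counts may include reads of KLC1 on the opposite strand, fell by 0.53 ± 0.16 (adjusted p = 0.026) with pTEADi and had -0.36 ± 0.14 (adjusted p = 0.136) with SW-682. RAD51C, the partner of XRCC3, had -0.63 ± 0.20 (adjusted p = 0.0867) with SW-682 and -0.46 ± 0.16 (adjusted p = 0.0557) with pTEADi, and passed in neither. RAD51AP1, which stimulates strand invasion, had -1.15 ± 0.30 (adjusted p = 0.0534) with SW-682 and -0.70 ± 0.26 (adjusted p = 0.0693) with pTEADi, where the libraries pTEADi 1 and 2 were at 3.301 and 3.23 CPM and pTEADi 3 at 6.56 CPM. Without pTEADi 3 it passed, with an adjusted p of 0.00717. RAD51C passed without Control 2, with an adjusted p of 0.0339.

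The Fanconi core complex, the ubiquitin ligase that marks FANCD2 and FANCI, fell in 1 of 8 genes with SW-682 and in 5 of 8 with pTEADi. Over all tested genes 3.48% and 13.6% fell. FANCA (ENSG00000187741.15, chr16:89726683-89816977, minus strand), a scaffold subunit and the gene most often mutated in Fanconi anaemia, was at 5.12, 12.3 and 13.2 CPM in the smTEADi libraries, against 25.4, 22.9 and 29.3 CPM in the Vehicle libraries. FANCA stood at 22.7, 20.98 and 21.1 CPM in the pTEADi libraries, against 41.7, 41.4 and 37.99 CPM in the Control libraries. The groups were far apart in both experiments, and FANCA fell by 1.34 ± 0.29 (adjusted p = 0.0401) on the log2 scale with SW-682 and by 0.90 ± 0.10 (adjusted p = 9.28e-05) with pTEADi, the smallest p of the set there. FANCG, a subunit that binds FANCA, was at 7.93, 9.05 and 8.78 CPM in the smTEADi libraries, against 14.97, 10.6 and 17.3 CPM in the Vehicle libraries. FANCG stood at 16.7, 15.02 and 15.1 CPM in the pTEADi libraries, against 23.9, 25.9 and 20.9 CPM in the Control libraries. It fell by 0.59 ± 0.12 (adjusted p = 0.00417) with pTEADi, while -0.73 ± 0.19 (adjusted p = 0.0539) with SW-682 did not pass although the groups did not overlap. FANCC, which forms a subcomplex with FANCE and FANCF, was at 11.9, 15.3 and 16.6 CPM in the smTEADi libraries, against 21.3, 15.1 and 22.6 CPM in the Vehicle libraries. FANCC stood at 21.8, 19.04 and 20.2 CPM in the pTEADi libraries, against 28.5, 29.5 and 28.5 CPM in the Control libraries. The pTEADi libraries were lower without overlap and FANCC fell by 0.51 ± 0.10 (adjusted p = 0.0041). Vehicle 2 lay within the smTEADi range, and the SW-682 value was -0.43 ± 0.19 (adjusted p = 0.174). FANCM, the translocase that anchors the complex to the fork, was at 3.71, 4.82 and 5.07 CPM in the smTEADi libraries, against 7.66, 6.72 and 8.76 CPM in the Vehicle libraries. FANCM stood at 4.58, 4.24 and 3.32 CPM in the pTEADi libraries, against 7.83, 5.79 and 5.597 CPM in the Control libraries. It fell by 0.66 ± 0.22 (adjusted p = 0.0424) with pTEADi, a call lost without pTEADi 1, pTEADi 2, pTEADi 3 or Control 1 (adjusted p = 0.0598 to 0.188), and had -0.76 ± 0.20 (adjusted p = 0.0561) with SW-682.

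FANCB, the X-linked core subunit that holds FANCL, had the most negative SW-682 value of the set with all libraries, but few reads: it was at 0.148, 0.859 and 1.36 CPM in the smTEADi libraries, against 3.103, 2.76 and 2.48 CPM in the Vehicle libraries. FANCB stood at 1.05, 0.719 and 1.59 CPM in the pTEADi libraries, against 3.19, 2.57 and 2.099 CPM in the Control libraries. The SW-682 value of -1.80 ± 0.53 (adjusted p = 0.0687) did not pass, with smTEADi 1 almost without reads. Without smTEADi 1 it was -1.33, less negative than RAD54B at -1.49. With pTEADi FANCB fell by 1.22 ± 0.37 (adjusted p = 0.0289), a call lost without pTEADi 1, pTEADi 2 or Control 1 (adjusted p = 0.0862 to 0.124). FANCL, the catalytic subunit of the ligase, was at 7.19, 13.1 and 9.996 CPM in the smTEADi libraries, against 11.1, 9.196 and 10.2 CPM in the Vehicle libraries. FANCL stood at 8.702, 8.19 and 11.5 CPM in the pTEADi libraries, against 9.98, 9.57 and 6.996 CPM in the Control libraries. Its groups overlapped in both experiments, with -0.01 ± 0.22 (adjusted p = 0.982) and 0.10 ± 0.19 (adjusted p = 0.749), and its sign changed with the library left out. FANCE had -0.28 ± 0.12 (adjusted p = 0.171) with SW-682 and -0.14 ± 0.15 (adjusted p = 0.534) with pTEADi, and FANCF had -0.32 ± 0.16 (adjusted p = 0.227) and -0.23 ± 0.16 (adjusted p = 0.317) in the same order. The catalytic subunit thus did not pass in the experiments in which its scaffold FANCA and its substrates fell, and the difference between these genes was not tested.

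All 3 genes of the ubiquitinated pair and its conjugating enzyme fell in both experiments, while FANCL, the catalytic subunit of the ligase, passed in neither. Of all tested genes 3.48% fell with SW-682 and 13.6% with pTEADi. For each of the 3 that fell, no inhibited library reached an uninhibited library of its experiment. smTEADi 1 was the lowest of the smTEADi libraries and Vehicle 2 of the Vehicle libraries. FANCD2 (ENSG00000144554.13, chr3:10026370-10101932, plus strand), the clamp subunit that carries the ubiquitin mark, was at 3.63, 6.47 and 6.14 CPM in the smTEADi libraries, against 14.5, 8.84 and 12.6 CPM in the Vehicle libraries. FANCD2 stood at 8.25, 9.56 and 6.91 CPM in the pTEADi libraries, against 14.2, 16.9 and 14.8 CPM in the Control libraries. FANCD2 fell by 1.14 ± 0.26 (adjusted p = 0.0423) on the log2 scale with SW-682 and by 0.89 ± 0.16 (adjusted p = 0.00159) with pTEADi. FANCI (ENSG00000140525.19, chr15:89243945-89317261, plus strand), its partner in the clamp, was at 13.9, 29.9 and 24.1 CPM in the smTEADi libraries, against 55.2, 40.3 and 63.1 CPM in the Vehicle libraries. FANCI stood at 31.2, 26.7 and 33.9 CPM in the pTEADi libraries, against 63.3, 57.1 and 53.7 CPM in the Control libraries. FANCI fell by 1.22 ± 0.26 (adjusted p = 0.0389) and by 0.92 ± 0.11 (adjusted p = 0.000169) in the same order. UBE2T (ENSG00000077152.11, chr1:202331544-202341984, minus strand), which hands ubiquitin to the ligase, was at 3.04, 4.62 and 5.998 CPM in the smTEADi libraries, against 12.5, 8.56 and 11.8 CPM in the Vehicle libraries. UBE2T stood at 8.93, 8.55 and 8.64 CPM in the pTEADi libraries, against 15.9, 16.5 and 14.97 CPM in the Control libraries. UBE2T fell by 1.26 ± 0.26 (adjusted p = 0.0384) and by 0.86 ± 0.13 (adjusted p = 0.000652) in the same order. These falls put the 3 genes at 41.7% to 45.4% of the Vehicle level and at 52.8% to 55.2% of the Control level.

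Of the late-acting genes, POLQ (ENSG00000051341.15, chr3:121431431-121545988, minus strand), the polymerase of an alternative end joining route that cells use when recombination fails, was at 7.04, 11.03 and 11.3 CPM in the smTEADi libraries, against 18.9, 17.1 and 22.4 CPM in the Vehicle libraries. POLQ stood at 9.002, 7.47 and 11.3 CPM in the pTEADi libraries, against 19.5, 18.9 and 20.2 CPM in the Control libraries. It fell by 0.99 ± 0.20 (adjusted p = 0.0378) on the log2 scale with SW-682 and by 1.08 ± 0.15 (adjusted p = 0.000486) with pTEADi, with no overlap of groups. BLM, the helicase that dissolves recombination intermediates, was at 1.26, 2.84 and 2.64 CPM in the smTEADi libraries, against 5.52, 3.395 and 6.56 CPM in the Vehicle libraries. BLM stood at 3.68, 2.299 and 4.35 CPM in the pTEADi libraries, against 7.76, 5.79 and 5.53 CPM in the Control libraries. It was lower without overlap in both experiments and fell by 0.88 ± 0.26 (adjusted p = 0.0247) with pTEADi, a call lost without pTEADi 1, pTEADi 2 or Control 1 (adjusted p = 0.059 to 0.117). Its SW-682 value of -1.19 ± 0.36 (adjusted p = 0.073) did not pass.

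No gene of the set passed the test of a difference between the effects of pTEADi and SW-682. Tested over all 12 libraries as pTEADi over Control minus SW-682 over Vehicle, the difference passed for 0 of 33 genes with edgeR, DESeq2 and limma-voom alike, where edgeR passed 0.0129% of 15460 genes above 0 and 0% below 0. Also, 0 of 33 had an unadjusted p under 0.05, where 1103 of all 15460 tested genes did. The differences ran from -0.32 ± 0.39 (adjusted p = 0.913) for BRIP1 to 0.89 ± 0.42 (adjusted p = 0.697) for RAD54B, with a median of 0.15. The log2 fold change was the more negative with SW-682 for 24 of 33 genes, among them RAD54L with -1.69 against -0.86 with pTEADi. It was the more negative with pTEADi for 9, among them BRIP1 with -1.19 against -0.86 with SW-682. Across the 33 genes the values of both experiments, which share no library, correlated with Pearson's r of 0.81 and Spearman's rho of 0.85, a description across genes that share level and cell cycle behaviour. All 9 genes that fell with SW-682 were among the 23 that fell with pTEADi, which makes 39.1% of the 23. Over all genes, the 470 that fell in both were 91.1% of those with SW-682 and 23.5% of those with pTEADi. The 10 genes that passed in neither were RAD50, NBN, ATM, ATR, BARD1, RAD51C, RAD51AP1, FANCE, FANCF and FANCL.

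Further genes of the same pathways also fell, with medians nearer to 0. Of 48 tested among 49 further recombination and Fanconi genes, 6 fell and 0 rose with SW-682 (median log2 fold change -0.29), and 18 fell and 2 rose with pTEADi (median -0.20). Over all tested genes 3.48% fell and 2.02% rose with SW-682, and 13.6% fell and 12.7% rose with pTEADi. EME1, a partner of the junction-cutting nuclease MUS81, had -1.24 ± 0.31 (adjusted p = 0.0492) with SW-682 and -1.49 ± 0.25 (adjusted p = 0.00129) with pTEADi, USP1, which removes the ubiquitin mark from FANCD2, -0.67 ± 0.15 (adjusted p = 0.0426) and -0.69 ± 0.11 (adjusted p = 0.000864), and the helicase RECQL4, -0.88 ± 0.20 (adjusted p = 0.0421) and -0.71 ± 0.12 (adjusted p = 0.0013). The genes that rose with pTEADi, named after their values were seen, were EME2, another partner of MUS81, with 0.68 ± 0.13 (adjusted p = 0.00287), and RECQL5, a helicase that restrains recombination, with 0.47 ± 0.11 (adjusted p = 0.00873). Their SW-682 values of 0.23 ± 0.14 (adjusted p = 0.323) and 0.63 ± 0.17 (adjusted p = 0.0549) did not pass. The count of 6 with SW-682 was 0 without smTEADi 1, smTEADi 3, Vehicle 1 or Vehicle 3, 2 without smTEADi 2 and 11 without Vehicle 2, and it was 16 with DESeq2.

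Among 28 partners of ATM and ATR in the checkpoint, 6 fell and 0 rose with SW-682 (median -0.14), and 13 fell and 1 rose with pTEADi (median -0.29). The shares of all tested genes that fell were 3.48% and 13.6%, and of those that rose 2.02% and 12.7%. WEE1, the kinase that holds CDK1 inactive, had -0.86 ± 0.16 (adjusted p = 0.0365) with SW-682 and -1.10 ± 0.13 (adjusted p = 0.000163) with pTEADi. MDC1, a scaffold at broken chromatin, had -0.71 ± 0.15 (adjusted p = 0.04) and -0.69 ± 0.09 (adjusted p = 0.000285), and TIMELESS, which stabilises stalled forks, -0.83 ± 0.16 (adjusted p = 0.0371) and -0.67 ± 0.10 (adjusted p = 0.000501). TP53BP1, which shields ends from resection and so opposes BRCA1, passed in neither, at 54.6, 46.4 and 51.3 CPM in the smTEADi libraries, against 46.2, 44.1 and 49.1 CPM in the Vehicle libraries. TP53BP1 stood at 42.2, 45.5 and 40.2 CPM in the pTEADi libraries, against 44.2, 40.1 and 45.6 CPM in the Control libraries. The gene that rose with pTEADi, named after its value was seen, was the clamp loader RAD17, with 0.41 ± 0.12 (adjusted p = 0.0254). The SW-682 count of 6 was 2 without smTEADi 1, 3 without smTEADi 2, and 0 without smTEADi 3, Vehicle 1 or Vehicle 3. The pTEADi count of 14 in either direction was 9 without Control 1.

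Other repair routes gave few calls. Over all tested genes 3.48% fell and 2.02% rose with SW-682, and 13.6% fell and 12.7% rose with pTEADi. With 5.5% of all genes called in either direction with SW-682, a count of 0 in lists of 11 to 23 genes is near that share. Of 11 tested genes of non-homologous end joining, which rejoins ends without a template, 0 passed with SW-682, and with pTEADi XRCC4 fell by 0.73 ± 0.20 (adjusted p = 0.0197) and LIG4, the ligase it binds, rose by 0.56 ± 0.15 (adjusted p = 0.0168). Of 23 genes of nucleotide excision repair 0 passed with SW-682, and with pTEADi 1 fell, MNAT1, of the kinase module of TFIIH, with -0.59 ± 0.17 (adjusted p = 0.0219), and 1 rose, the nuclease ERCC5, with 0.38 ± 0.09 (adjusted p = 0.00914). Of 21 genes of base excision and single-strand break repair 0 passed with SW-682 and 3 fell with pTEADi, the glycosylase NEIL3 with -1.11 ± 0.23 (adjusted p = 0.00456), PARP1, the sensor of single-strand breaks, with -0.36 ± 0.08 (adjusted p = 0.00658), and PARP2 with -0.38 ± 0.13 (adjusted p = 0.0439). MSH6, a mismatch repair gene, fell in both, with -0.68 ± 0.13 (adjusted p = 0.0365) for SW-682 and -0.65 ± 0.09 (adjusted p = 0.000412) for pTEADi. The counts of 0 with SW-682 were edgeR's. At an unadjusted p under 0.05 the counts were 3 for end joining, 5 for nucleotide excision and 8 for base excision. Of all 14829 tested genes, 4128 had such a p with SW-682. DESeq2 gave 1, 0 and 2 calls in the same order. Without Vehicle 2 edgeR called 1 end joining and 2 base excision genes. The pTEADi count of 2 for end joining was 1 without pTEADi 1 or Control 1 and 0 without pTEADi 2, that of 2 for nucleotide excision was 1 without pTEADi 1, pTEADi 2 or Control 1, and that of 3 for base excision was 5 without Control 3. Median log2 fold changes of the end joining, nucleotide excision, base excision and mismatch repair genes were -0.07, -0.06, -0.17 and -0.45 with SW-682 and 0.03, -0.06, -0.10 and -0.20 with pTEADi. The medians of the recombination and Fanconi set were -0.76 and -0.69.

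**Figure D4:**
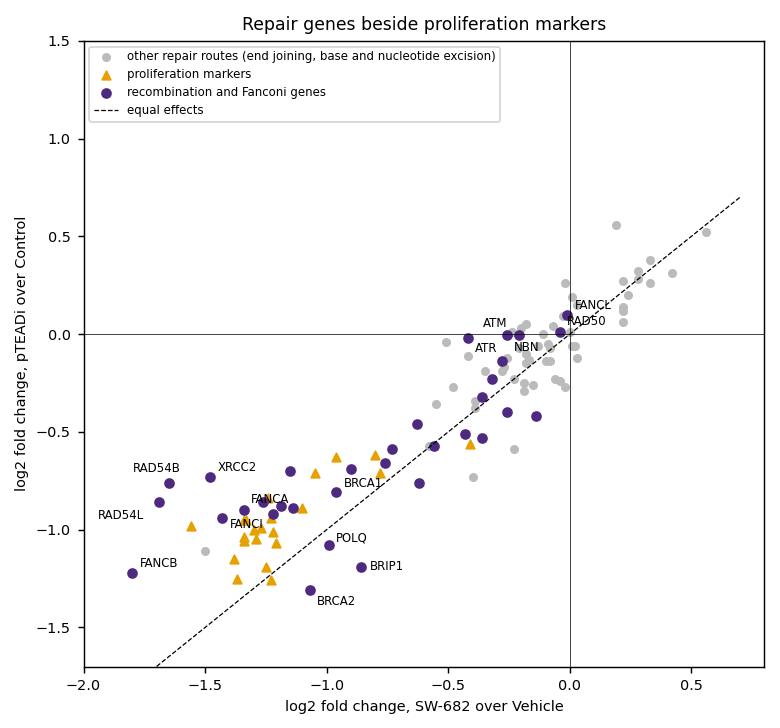
log2 fold change with pTEADi over Control (vertical) against SW-682 over Vehicle (horizontal) for the 33 recombination and Fanconi genes, proliferation markers, and genes of end joining, base excision and nucleotide excision repair. The recombination genes run from RAD50 and FANCL near 0 to the range of the proliferation markers, with BRCA2 lowest on the vertical axis at -1.31.

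Proliferation markers fell along with the set, with larger medians. Of 22 markers, 18 fell with SW-682 (median log2 fold change -1.25) and 21 with pTEADi (median -0.99), and 0 rose. Over all tested genes 3.48% and 13.6% fell. MKI67, the marker of cycling cells, was at 41.96, 88.4 and 78.5 CPM in the smTEADi libraries, against 180.3, 137 and 209 CPM in the Vehicle libraries. MKI67 stood at 117, 93.9 and 124 CPM in the pTEADi libraries, against 229.5, 214 and 204 CPM in the Control libraries. It fell by 1.33 ± 0.26 (adjusted p = 0.0365) with SW-682 and by 0.95 ± 0.11 (adjusted p = 0.00012) with pTEADi. The mitotic genes PLK1 and TPX2 and the cyclin CCNA2 fell too, with -1.22 ± 0.21 (adjusted p = 0.0365) and -1.01 ± 0.10 (adjusted p = 4.31e-05) for PLK1, -1.27 ± 0.22 (adjusted p = 0.0365) and -0.99 ± 0.09 (adjusted p = 4.42e-05) for TPX2, and -1.25 ± 0.26 (adjusted p = 0.0392) and -1.19 ± 0.11 (adjusted p = 4.31e-05) for CCNA2. The mean log2 (CPM + 0.5) of the 33 genes was 2.83, 3.42 and 3.42 in smTEADi libraries, against 4.08, 3.77 and 4.14 in Vehicle libraries. It was 3.45, 3.33 and 3.52 in pTEADi libraries, against 4.12, 3.97 and 3.97 in Control libraries. The mean of the markers was 4.10, 5.02 and 4.84 in smTEADi libraries, against 5.92, 5.54 and 6.12 in Vehicle libraries, and 5.33, 5.15 and 5.39 in pTEADi libraries, against 6.28, 6.29 and 6.12 in Control libraries. Both measures were lowest in smTEADi 1 among the smTEADi libraries, in Vehicle 2 among the Vehicle libraries and in pTEADi 2 among the pTEADi libraries. Subtracting the markers from the set gave -1.27, -1.61 and -1.42 in smTEADi libraries, against -1.83, -1.78 and -1.98 in Vehicle libraries. In the other experiment it gave -1.88, -1.81 and -1.87 in pTEADi libraries, against -2.16, -2.32 and -2.15 in Control libraries. The set was therefore higher relative to the markers in every inhibited library than in any uninhibited library of its experiment. This is a description with no test, and the share of the fall that goes with fewer cycling cells was not tested. The SW-682 count of 18 markers was 0 without smTEADi 3, Vehicle 1 or Vehicle 3.

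**Figure D5:**
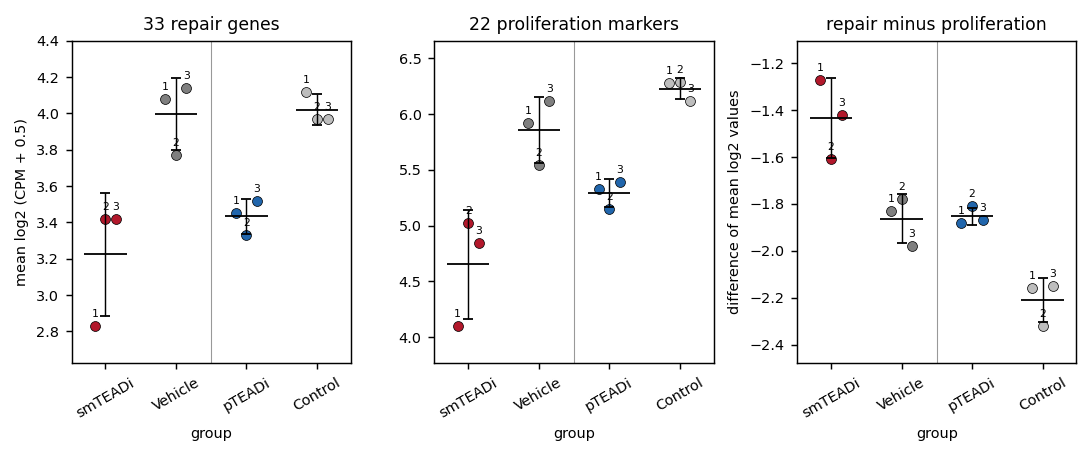
Mean log2 (CPM + 0.5) of the 33 repair genes (left) and 22 proliferation markers (middle) and their difference (right) in each library, numbered by replicate, with the group mean and SD (n = 3). smTEADi 1 is lowest in the left and middle panels at 2.83 and 4.10, and in the right panel each inhibited group lies above its own controls.

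Regulators of cell cycle genes and direct targets of YAP and TAZ gave calls in one direction. Over all tested genes 3.48% fell and 2.02% rose with SW-682, and 13.6% fell and 12.7% rose with pTEADi. Of 20 E2F and DREAM regulators, 4 fell and 0 rose with SW-682 and 7 fell and 0 rose with pTEADi. FOXM1 and MYBL2, factors that drive late cell cycle genes, fell in both, with -1.25 ± 0.22 (adjusted p = 0.0365) and -1.07 ± 0.09 (adjusted p = 2.66e-05) for FOXM1 and -1.24 ± 0.25 (adjusted p = 0.0379) and -0.88 ± 0.10 (adjusted p = 0.000129) for MYBL2. E2F1 was at 16.01, 21.01 and 24.5 CPM in the smTEADi libraries, against 28.3, 31.6 and 36.5 CPM in the Vehicle libraries. E2F1 stood at 30.5, 29.5 and 31.6 CPM in the pTEADi libraries, against 47.9, 47.7 and 36.7 CPM in the Control libraries. Its groups did not overlap, and it fell by 0.53 ± 0.12 (adjusted p = 0.00577) with pTEADi, with -0.65 ± 0.17 (adjusted p = 0.0535) for SW-682. Direct YAP/TAZ targets fell in 6 of 18 tested genes with SW-682 and in 11 of 19 with pTEADi, and 0 rose. CCN1, a standard target, was at 8.599, 15.5 and 13.4 CPM in the smTEADi libraries, against 40.2, 33.5 and 34.5 CPM in the Vehicle libraries. CCN1 stood at 30.7, 17.2 and 23.3 CPM in the pTEADi libraries, against 62.9, 80.9 and 46.7 CPM in the Control libraries. It had -1.52 ± 0.20 (adjusted p = 0.0365) and -1.42 ± 0.21 (adjusted p = 0.000624). NT5E had -1.88 ± 0.37 (adjusted p = 0.0371) and -2.23 ± 0.32 (adjusted p = 0.000531), DOCK5 -0.72 ± 0.13 (adjusted p = 0.0365) and -0.93 ± 0.11 (adjusted p = 0.000188), and F3, the initiator of clotting, -0.12 ± 0.27 (adjusted p = 0.802) and -1.37 ± 0.19 (adjusted p = 0.000426). Without smTEADi 3, Vehicle 1 or Vehicle 3 both SW-682 counts were 0, and the pTEADi count of 11 targets was 7 without pTEADi 1 and 6 without pTEADi 3.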

How the data were processed

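Poly-T beads enriched messenger RNA for 12 xenograft libraries, which were read as pairs of 150 bases. Per the submitters' processing notes and the series' design text, the authors aligned reads to GRCh38 with STAR 2.7.9a and Gencode 38 gene models and estimated counts with RSEM 1.3.1. What they deposited is a table of expected counts for each gene, unscaled, in which 6.77% to 7.27% of a library's values were fractional. The sources used here give neither the strand setting nor how reads of the mouse host were handled. Genes were named from Gencode 44 (GRCh38).

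After rounding, the counts went into edgeR 4.0.16 under R 4.3.3 (filterByExpr at a minimum count of 10, TMM scaling, quasi-likelihood F test, two-sided, Benjamini-Hochberg adjusted p under 0.05) for all genes, each treatment against its own control group, and as a difference of both effects over 12 libraries. Standard errors were taken as the absolute log2 fold change over the root of F. Printed CPM are TMM-scaled within an experiment, and a pseudocount of 0.5 CPM was used for mean log2 values. On simulated data with known changes, the tests found 88% (SW-682), 91% (pTEADi) and 73% (difference) of genes changed 2-fold, and 9.62%, 7.28% and 9.09% of their calls were false, above the nominal 5%. Changes were placed only in genes with a mean of at least 5 CPM, and genes were drawn independently. These shares may therefore not hold for genes at lower levels, such as FANCB, or where genes of a library shift together. Library pairs within a group differed by more than sampling noise (chi-square per degree of freedom 7.42 to 34.0), so none was counted as a duplicate.

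The 33 genes, the other gene lists and the tests were chosen with earlier results of these data known, so lists are described by counts and medians. Values in every library are given for up to 4 genes per role with the smallest p among those that passed in either comparison, for BRCA1, BRCA2, FANCD2, ATM and ATR, and, chosen after their values were seen, for FANCB and FANCL. Of each other list, up to 3 genes with the smallest p are named, with TP53BP1, MKI67, E2F1 and CCN1, and some genes of these lists are not reported here. Alternatives were RLE and upper-quartile scaling, other count filters, DESeq2 1.42.0, limma-voom (limma 3.58.1), unrounded counts, a threshold of 0.01, a replicate block, protein-coding genes, 1 fit of all libraries, and leaving out each library. Promoter windows came from RefSeq (GRCh38.p14) and figures from matplotlib 3.10.9.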

Additional observations from a re-analysis of the deposited data

How the results depend on the processing

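With SW-682 the 9 genes that fell became 19 with no low-count filter, 18 with DESeq2, 20 in 1 fit of all 12 libraries, 0 at a threshold of 0.01 and 0 to 17 when a library was left out. The smallest SW-682 adjusted p of all 14829 tested genes was 0.0365. The 0 at a threshold of 0.01 therefore holds for every gene and says nothing particular about the set. Under RLE and upper-quartile scaling, unrounded counts, a minimum of 10 counts in 3 libraries and protein-coding genes the count was 9, and with limma-voom 11. With pTEADi the 23 genes that fell became 14 at a threshold of 0.01, 19 in 1 fit of all libraries and 16 to 24 when a library was left out. No setting gave a gene that rose past the test. The median of the set was -0.91 to -0.64 with SW-682 and -0.73 to -0.58 with pTEADi when a library was left out, lowest in size without Control 1 for pTEADi, and the test of the difference passed for 0 genes under every setting run.

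Replicate numbers were not taken as pairs, since deviations of libraries with the same number correlated at -0.109, -0.078 and 0.115 in the SW-682 experiment and at 0.002, -0.066 and -0.027 in the pTEADi experiment. With the replicate number as a block, 0 genes passed with SW-682, where the adjusted p-values of the 9 genes were 0.0828 to 0.101, 24 passed with pTEADi, and 0 passed for the difference.

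Signs changed in genes near 0. FANCL with SW-682 was 0.0069 on the log2 scale among protein-coding genes and -0.2424 to 0.1838 when a library was left out. With pTEADi, NBN was 0.003 under RLE scaling, 0.0031 with DESeq2 and 0.003 among protein-coding genes, and ATM 0.0025, 0.0025 and 0.0022 in the same order. Leaving out a library gave -0.0535 to 0.0684 for RAD50, -0.0634 to 0.0471 for NBN, -0.0892 to 0.0824 for ATM, -0.1235 to 0.0514 for ATR and -0.0595 to 0.2018 for FANCL. FANCB with SW-682 was -2.41 to -1.33 when a library was left out, the first without smTEADi 3 and the second without smTEADi 1.

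Among the other lists, the SW-682 counts also moved by over 1.5 times: the further recombination and Fanconi genes gave 3 under upper-quartile scaling, 16 with no filter and 17 in 1 fit of all libraries, and the checkpoint partners 10 with no filter. At a threshold of 0.01 and with the block, 0 genes of any other list passed with SW-682. At 0.01 this was fixed for every list, since the smallest adjusted p of all tested genes was 0.0365. In 1 fit of all libraries base excision gave 3, end joining 2 and nucleotide excision 3, and with no filter base excision gave 2 and end joining 1. Base excision also gave 1 with limma-voom and 1 among protein-coding genes. With pTEADi, a threshold of 0.01 left 8 checkpoint partners, 7 YAP/TAZ targets, 1 nucleotide excision and 0 end joining genes, and 1 fit of all libraries left 1 base excision gene. The causes were not tested. Low counts limit FANCB, BLM, RAD51D and XRCC2 most, and 3 libraries per group limit every call.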

Other observations

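Genes known as targets of p53, the factor that DNA damage activates, moved in both directions. Of 20 tested, 2 fell and 2 rose with SW-682, and 5 fell and 6 rose with pTEADi, with medians of 0.16 and 0.02 on the log2 scale. Of all tested genes 3.48% fell and 2.02% rose with SW-682, and 13.6% fell and 12.7% rose with pTEADi. CDKN1A, whose protein p21 stops the cell cycle, was at 679.6, 577 and 589.6 CPM in the smTEADi libraries, against 363, 491 and 349.5 CPM in the Vehicle libraries. CDKN1A stood at 691, 650.4 and 575 CPM in the pTEADi libraries, against 349.6, 329 and 396 CPM in the Control libraries. It rose by 0.62 ± 0.15 (adjusted p = 0.0462) with SW-682 and by 0.83 ± 0.10 (adjusted p = 0.00022) with pTEADi (edgeR). TP53INP1, which promotes cell cycle arrest and death, had 0.71 ± 0.16 (adjusted p = 0.0413) and 0.96 ± 0.13 (adjusted p = 0.00032) in the same order. PMAIP1, whose protein NOXA promotes cell death, was at 5.12, 6.87 and 5.86 CPM in the smTEADi libraries, against 18.9, 14.01 and 18.5 CPM in the Vehicle libraries. PMAIP1 stood at 6.08, 5.17 and 3.94 CPM in the pTEADi libraries, against 25.5, 43.8 and 15.5 CPM in the Control libraries. It fell by 1.52 ± 0.18 (adjusted p = 0.0365) and 2.48 ± 0.33 (adjusted p = 0.000296). The SW-682 count of 4 in either direction was 2 without smTEADi 1 or smTEADi 2, 0 without smTEADi 3, Vehicle 1 or Vehicle 3, and 7 in 1 fit of all libraries.

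Some markers of other cells than the carcinoma also passed the test with pTEADi. Of the markers listed for them, VWF had 1.14 ± 0.30 (adjusted p = 0.0561) with SW-682 and 1.19 ± 0.19 (adjusted p = 0.000862) with pTEADi, and PLIN4 0.43 ± 0.34 (adjusted p = 0.433) and 0.87 ± 0.24 (adjusted p = 0.0179). ERG, the other tested endothelial marker, had the opposite sign, with -0.42 ± 0.27 (adjusted p = 0.335) and -0.61 ± 0.31 (adjusted p = 0.172). FABP4, the other tested adipocyte marker, had 0.92 ± 0.23 (adjusted p = 0.0518) and -0.30 ± 0.21 (adjusted p = 0.335). CSF1R, CD74 and FAP fell with pTEADi, with -1.39 ± 0.41 (adjusted p = 0.0254), -0.59 ± 0.11 (adjusted p = 0.0031) and -0.92 ± 0.25 (adjusted p = 0.0173). These were 2 of 5 tested leukocyte and 1 of 4 tested fibroblast markers, and 13.6% of all tested genes fell and 12.7% rose with pTEADi. Summed leukocyte markers were 36.1 to 57.5 CPM in smTEADi, 35.4 to 45.3 in Vehicle, 36.2 to 42.0 in pTEADi and 47.6 to 72.6 in Control libraries. Summed fibroblast markers were 85.9 to 92.2, 77.6 to 97.6, 99.4 to 137.7 and 100.6 to 118.7 CPM in the same groups. Summed adipocyte markers were 36.5 to 66.9, 23.2 to 31.0, 17.3 to 20.5 and 14.7 to 22.7 CPM.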
